A study of Mus musculus with 3 samples.

Results

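Hoxa4, Hoxb4, Hoxc4, Hoxd4, Hoxa5, Hoxb5 and Hoxc5 are the paralogues of Hox groups 4 and 5 in the mouse. They were taken from the table by their gene names, and all 7 were found, 4 in group 4 and 3 in group 5, among 33762 features. The HoxD cluster has no group 5 gene. The table describes polyadenylated RNA of the colon, the caecum and the presumptive ileum of wild-type C57 black mouse embryos (strain written Bl6/C57) at E13.5, with 1 sample per segment. The ileum was the last of 3 equal portions of the small intestine. Whether a sample held the gut of 1 embryo or of several was not stated. Each segment has 2 columns that lay closer together than counting error allows for separate libraries. They were taken as 1 library per segment, so differences have no replicate check and no p-value is given. Brackets hold 95% intervals, which cover counting error only.

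Hox genes encode homeodomain transcription factors and lie in 4 clusters, HoxA to HoxD. Genes at the same place in different clusters are paralogues, and genes toward the 3' end of a cluster tend to be expressed in more anterior parts of the embryo than those toward the 5' end. Groups 4 and 5 lie in the 3' part. In mice, Hoxa5 acts in the mesenchyme of the lung and gut, Hoxb5 in the neural crest that forms the enteric nervous system, and forced expression of Hoxa4 gives megacolon. Hoxc4 is needed for the muscle of the oesophagus, Hoxd4 responds to retinoic acid in the hindbrain, and Hoxb4 is best known from blood stem cells.

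The group 4 and 5 genes did not share one profile along the gut. The HoxC genes, Hoxc4 and Hoxc5, were highest in the ileum library, lower in the caecum and nearly gone from the colon. Hoxd4 stood highest in the caecum, and it was the member with the highest level anywhere. The HoxA and HoxB genes were highest in the ileum too, but their levels in the colon and caecum lay within 2-fold of each other. For Hoxa5 the caecum lay between the others, 1.35-fold (1.22 to 1.496) below the ileum and 1.60-fold (1.41 to 1.81) above the colon. For Hoxb4 the colon lay between, 1.36-fold (1.22 to 1.51) below the ileum and 1.47-fold (1.31 to 1.66) above the caecum. In each of these genes the intervals of the steps overlap, so which segment was nearer was not settled. In whole tissue, fewer cells of a type and less RNA per cell cannot be told apart. The paralogue with the highest level in group 4 was Hoxd4 in the colon, Hoxd4 in the caecum and Hoxc4 in the ileum.

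Sequences upstream of Hoxc4 and Hoxd4 are shown first, because these 2 paralogues led group 4 in different segments, Hoxc4 in the ileum and Hoxd4 in the colon and caecum. The RefSeq promoter table (GRCm38.p6) held 4 of the 7 members, Hoxa4, Hoxb5 and Hoxc5 not among them. Each sequence gives the 250 bases before the annotated start, read 5′ to 3′ on the plus strand of the genome, for Hoxc4 at chr15:103034145-103034394 and for Hoxd4 at chr2:74721728-74721977. In GENCODE vM21 (GRCm38) Hoxc4 has 2 starts, and the window shown lies before the second, 15461 bases after the first. The counted Hoxc4 feature spans 17908 bases and the gene 2458 from the second start to its end. RNA from the 2 starts of Hoxc4 was therefore not told apart in the counts. Hoxd4 has 3 starts in the same annotation, the first 10049 bases before the one shown. RNA from its different starts was not told apart in the counts. For Hoxd4 the counted span equals the distance from the start shown to the end of the gene, 7183 bases. For Hoxb4 the counted span was longer than that distance, 4955 against 3372 bases, and for Hoxa5 both were 2834 bases. Capitals mark matches to the motifs searched.
Hoxc4: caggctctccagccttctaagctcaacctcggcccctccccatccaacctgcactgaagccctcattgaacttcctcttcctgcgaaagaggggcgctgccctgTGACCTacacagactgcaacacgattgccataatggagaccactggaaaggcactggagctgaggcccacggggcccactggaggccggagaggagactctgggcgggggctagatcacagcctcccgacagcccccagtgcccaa
Hoxd4: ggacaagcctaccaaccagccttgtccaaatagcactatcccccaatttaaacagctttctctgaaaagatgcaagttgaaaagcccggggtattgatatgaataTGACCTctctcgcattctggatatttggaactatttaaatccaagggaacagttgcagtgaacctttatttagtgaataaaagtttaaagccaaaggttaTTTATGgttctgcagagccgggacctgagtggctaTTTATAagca
The motifs were AGGTCA (bound by retinoid receptors), TTTATG (caudal type), TGATTNAT (Hox with Pbx), TAATTA (homeodomain) and TATAAA (the core promoter box bound by TBP), each on both strands, and no marked matches overlap. Both upstream sequences held AGGTCA on the minus strand, which reads TGACCT as printed, at position -146 for Hoxc4 and -145 for Hoxd4. That motif was present in 14% of 32851 promoters of the same length. The Hoxd4 sequence also held TTTATG at -45 and TATAAA on the minus strand at -10, motifs present in 10.8% and 12.4% of promoters. Hoxb4 held AGGTCA at -81, and Hoxa5 held none of the 5 motifs in this window. The share of G and C was 62.0% for Hoxc4, 40.4% for Hoxd4, 58.0% for Hoxb4 and 63.6% for Hoxa5, against a median of 52.4% over all promoters. These matches are letters in a window and were not tied to binding by any measurement here.

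The 3 microRNA genes Mir10a, Mir10b and Mir615 lie inside the counted spans of members in mm9, each on the same strand as its host feature. Mir10a lies inside Hoxb4, Mir10b inside Hoxd4 and Mir615 inside Hoxc5. In GRCm38, mmu-miR-10a-5p ends at 96317208, before the 1 GENCODE start of Hoxb4 at 96318267. The mature sequences that share a seed are shown, with the seed, bases 2 to 8, in capitals (RefSeq, GRCm38.p6).
mmu-miR-10a-5p: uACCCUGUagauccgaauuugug
mmu-miR-10b-5p: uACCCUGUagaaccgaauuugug
Counted from the 5′ end of mmu-miR-10a-5p, the difference is U12A, which lies outside the seed. Reads of these host features are of polyadenylated RNA and do not measure the mature microRNAs. Mir10a had 10, 6 and 6 counts in the colon, caecum and ileum, Mir10b had 0, 1 and 0, and Mir615 had 0, 0 and 2. No ratio was taken from such counts.

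The libraries held 50773032 counts in the colon, 64439972 in the caecum and 50079916 in the ileum. Segment markers mostly followed the labels. Hoxa13 had 2310, 81 and 0 counts and Hoxd13 2354, 13 and 1 counts in the colon, caecum and ileum, while Gata4 had 58, 4 and 702 counts and Fabp2 19, 4 and 104. Pitx1 was highest in the caecum, at 7.43, 11.5 and 2.34 RPKM, but Fgf10 was highest in the colon, at 15.7, 7.29 and 0.536 RPKM. Onecut2 was highest in the caecum. Markers of spinal cord and somite other than Pax6 were at 6 counts or fewer in every library, with Olig2 at 0 in all 3. Pax6 had 572, 808 and 598 counts in the colon, caecum and ileum. Among mesonephros and gonad markers other than Gata4, Pax2 reached the most, with 2, 25 and 5 counts. Of pancreas markers, Sox9 had 717, 1055 and 864 counts, Cpa1 28, 15 and 23, and Pdx1 and Ptf1a 1 or fewer.

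In HoxC, Hoxc4 had 0.377, 2.52 and 8.84 RPKM in the colon, caecum and ileum, from 49, 414 and 1132 counts. RPKM are the authors' read counts divided by gene length and library depth, and they are the scale on which genes are compared with each other here. Hoxc5, the neighbour of Hoxc4, had 0.303, 1.01 and 5.502 RPKM, from 45, 191 and 806 counts. For both genes the colon was lowest and the ileum highest, and no interval of one segment's level reached that of another. On TMM-scaled counts, the scale used between segments, Hoxc4 was 23.8-fold (17.9 to 32.3) and Hoxc5 18.4-fold (13.6 to 25.5) lower in the colon than in the ileum. The step from colon to caecum was larger for Hoxc4, 6.68-fold (4.96 to 9.18) lower in the colon, than for Hoxc5, 3.36-fold (2.42 to 4.76). The step from caecum to ileum was the other way round, with Hoxc5 5.49-fold (4.68 to 6.46) and Hoxc4 3.56-fold (3.18 to 3.99) lower in the caecum. The ratio between these folds of the pair was 1.54 (1.27 to 1.87) for caecum over ileum and 0.502 (0.324 to 0.780) for colon over caecum. Over the whole distance their folds were not told apart, at a ratio of 0.775 (0.512 to 1.17).

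In HoxD, Hoxd4 had 4.43, 20.04 and 7.53 RPKM in the colon, caecum and ileum, from 576, 3306 and 966 counts. The caecum was highest, the ileum next and the colon lowest, each apart from the next beyond counting error. The colon lay 4.54-fold (4.15 to 4.97) below the caecum for Hoxd4, and the caecum 2.63-fold (2.45 to 2.83) above the ileum. It lies inside the span of Hoxd3 on the same strand, and reads that both could claim were not told apart. Hoxd3 had 1986, 10634 and 3602 counts, which gave almost the same profile.

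In HoxA, Hoxa4 had 3.22, 2.29 and 7.45 RPKM in the colon, caecum and ileum, from 261, 235 and 594 counts. The ileum stood apart from both other segments, 2.34-fold (2.02 to 2.72) above the colon and 3.29-fold (2.82 to 3.84) above the caecum, and the caecum was the lowest. The colon was 1.404-fold (1.17 to 1.68) higher than the caecum. Hoxa5 had 4.01, 6.37 and 8.54 RPKM, from 382, 771 and 802 counts, lowest in the colon and highest in the ileum. It was 2.16-fold (1.91 to 2.45) lower in the colon than in the ileum, 1.60-fold (1.41 to 1.81) lower in the colon than in the caecum and 1.35-fold (1.22 to 1.496) lower in caecum than ileum. The difference between these neighbours was in the caecum. For caecum over ileum the ratio of the fold of Hoxa4 to that of Hoxa5 was 0.412 (0.344 to 0.493), while for colon over ileum it was 0.922 (0.763 to 1.12), an interval that holds 1. Both genes lie inside the spans of 2 features named Hoxa3 on the same strand and of 2700086A05Rik on the other strand. These features were not lowest in the caecum: the larger Hoxa3 feature by counts had 807, 1522 and 1044 and 2700086A05Rik 246, 513 and 405 counts in the colon, caecum and ileum.

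In HoxB, Hoxb4 had 2.83, 1.91 and 3.79 RPKM in the colon, caecum and ileum, from 596, 511 and 786 counts. It varied least of the 7 between the colon and the ileum, where it was 1.36-fold (1.22 to 1.51) lower in the colon. In the caecum it was 2.001-fold (1.79 to 2.24) lower than in the ileum, right at the threshold used below, and the colon was 1.47-fold (1.31 to 1.66) above the caecum. Hoxb5 had 3.96, 3.88 and 9.51 RPKM, from 566, 704 and 1340 counts. The ileum stood alone, 2.44-fold (2.21 to 2.69) above the colon and 2.48-fold (2.26 to 2.72) above the caecum. Colon and caecum were not told apart for Hoxb5, at a ratio of 1.02 (0.908 to 1.14).

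**Figure D1:**
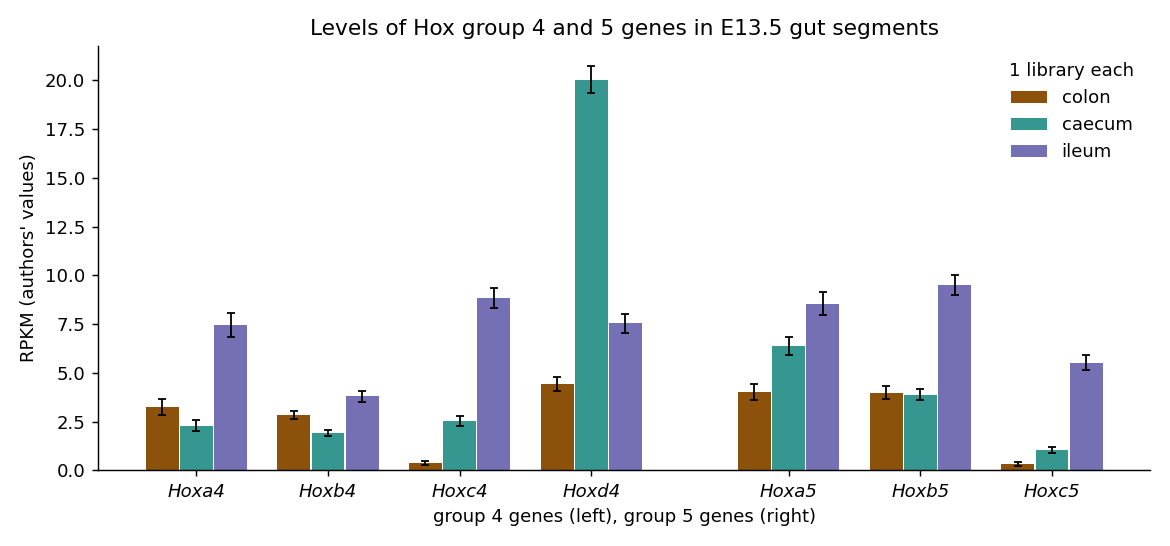
Levels of the 7 genes in RPKM (vertical axis), with 1 bar per segment in the order colon, caecum, ileum and error bars for 95% counting intervals. Hoxc4 and Hoxc5 are lowest in the colon, at 0.377 and 0.303 RPKM, and Hoxd4 reaches 20.04 RPKM in the caecum.

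A gene was counted as apart between segments at a ratio of 2 or more where the higher library held 20 counts or more, a minimum that all 7 members passed in each comparison. Between colon and ileum, 5 of 7 members were lower in the colon (Hoxa4, Hoxc4, Hoxa5, Hoxb5 and Hoxc5) and 0 higher, where 4.29% of 17579 genes were lower and 4.04% higher. All 7 ratios were below 1, and the highest of them, that of Hoxb4, lay above 10.3% of the genes measured. The median of the members was -1.23 on the log2 scale, against 0.00 for all genes measured. Between caecum and ileum, 5 of 7 were lower in the caecum (all but Hoxd4 and Hoxa5) and Hoxd4 alone was higher, where 2.52% of 17827 genes were lower and 4.59% higher. The median of the members was -1.31 log2 and that of all genes 0.01. Between colon and caecum, 3 of 7 were lower in the colon (Hoxc4, Hoxd4 and Hoxc5) and 0 higher, where 5.11% of 17900 genes were lower and 2.74% higher. Here the members spread to both sides of 1, with Hoxa4 and Hoxb4 above it, and their median was -0.68 log2 against -0.01.

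**Figure D2:**
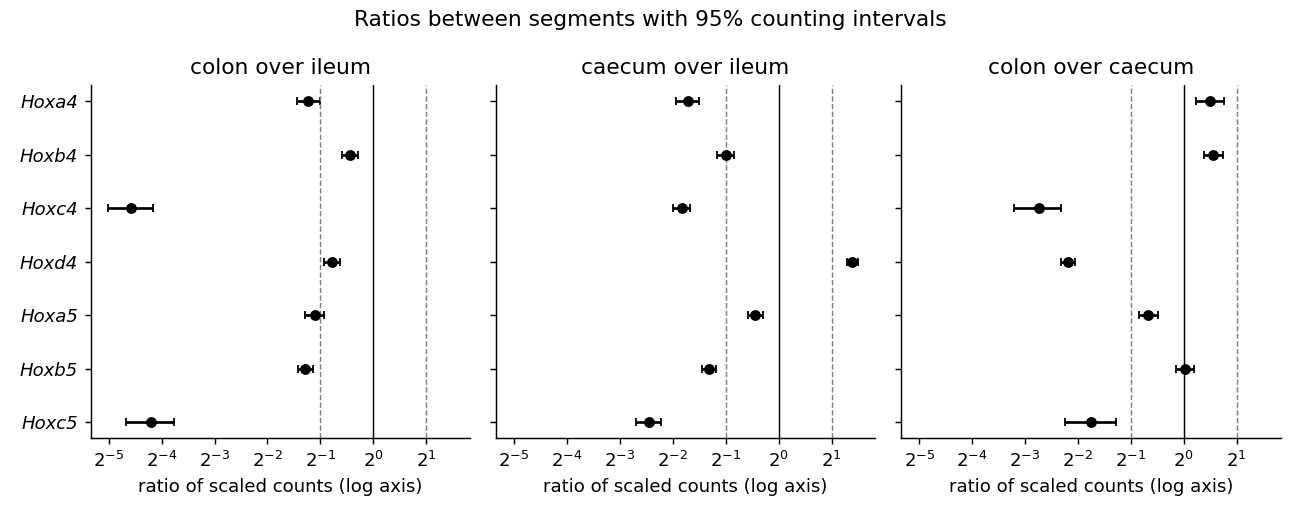
Ratios of scaled counts between segments for the 7 genes (horizontal log axis), with 95% counting intervals as lines and dashed lines at 2-fold. All points lie left of 1 for colon over ileum, and Hoxd4 is the member right of 1 for caecum over ileum.

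**Figure D3:**
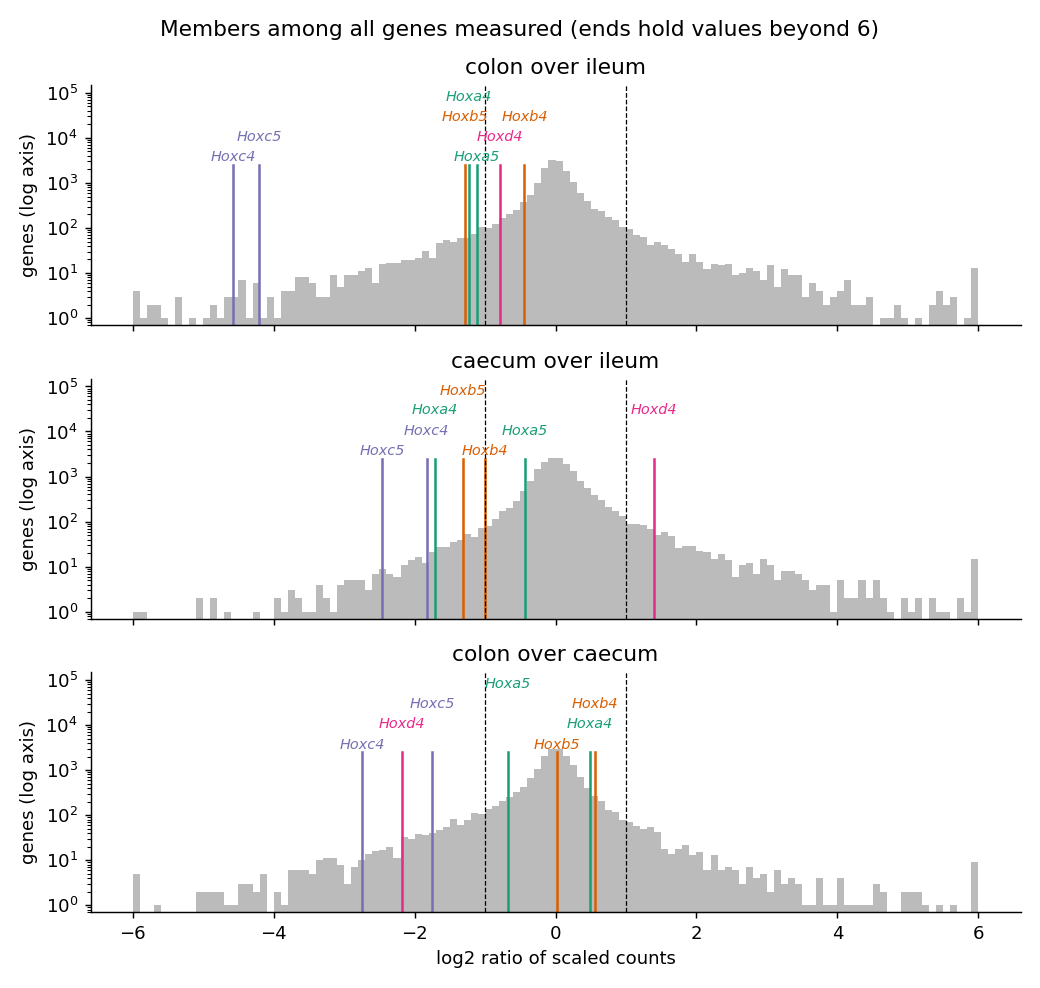
Numbers of genes (vertical log axis) by log2 ratio between segments (horizontal axis), with vertical lines for the 7 members and dashed lines at 2-fold. Hoxc4 and Hoxc5 lie at -4.57 and -4.20 for colon over ileum, where 95% of genes lie above -0.88.

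Within each group the paralogues traded places between segments. Summed over the group, group 4 had 10.9, 26.8 and 27.6 RPKM in the colon, caecum and ileum, so the sums of caecum and ileum were close although their make-up was not. Hoxd4 gave 40.8% of the group 4 sum in the colon, 74.9% in the caecum and 27.3% in the ileum. Hoxc4 gave 3.47%, 9.40% and 32.0%. Hoxa4 gave 29.7%, 8.55% and 27.0%, and Hoxb4 26.04%, 7.14% and 13.7%. Without Hoxd4 the group 4 sum was 6.43, 6.71 and 20.1 RPKM, which put the caecum level with the colon.

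Group 5, which lacks a HoxD gene, had 8.27, 11.3 and 23.5 RPKM in the colon, caecum and ileum. Hoxa5 and Hoxb5 gave nearly the whole sum in the colon, at 48.5% and 47.9%, with 3.67% from Hoxc5. In the caecum Hoxa5 led with 56.5%, before Hoxb5 with 34.5% and Hoxc5 with 8.99%. The ileum was the most even, with 40.4% from Hoxb5, 36.2% from Hoxa5 and 23.4% from Hoxc5. Shares rest on the gene lengths used by the authors, which their values put at between 1594 bases for Hoxa4 and 4149 bases for Hoxb4. A wrong length would move a gene's share by a different factor in each segment.

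**Figure D4:**
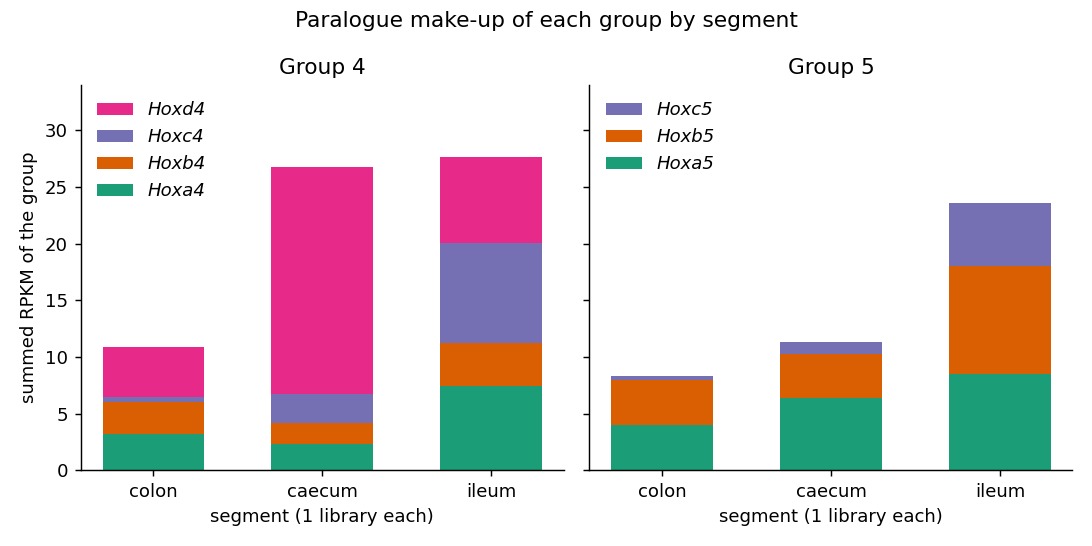
Summed RPKM (vertical axis) of group 4 and group 5 in the colon, caecum and ileum libraries, split by paralogue. The group 4 bars of caecum and ileum reach 26.8 and 27.6 RPKM, with 74.9% and 27.3% from Hoxd4.

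Across the 6 pairs in group 4, the 3 pairs in group 5 and the 3 pairs of a group 4 and a group 5 gene of 1 cluster, 36 ratios of folds were computed, and 31 had intervals that left out 1. The share for pairs of other genes was not computed. Genes in general differed between segments by 43.1 to 63.2 times the counting variance, so this count cannot be read as particular to the members. These ratios do not depend on how libraries are scaled. The widest contrast in group 4 between colon and ileum was Hoxb4 against Hoxc4, at 17.5 (12.9 to 23.8). Between caecum and ileum it was Hoxc4 against Hoxd4, at 0.107 (0.0935 to 0.122). In group 5 Hoxa5 and Hoxb5 were not told apart between colon and ileum, at 1.13 (0.964 to 1.32), but were between caecum and ileum, at 1.83 (1.60 to 2.09). In group 4 Hoxa4 and Hoxb4 were not told apart between colon and caecum, at 0.952 (0.770 to 1.18), nor Hoxa4 and Hoxc4 between caecum and ileum, at 1.08 (0.896 to 1.31).

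Within the clusters, members were also set against the Hox genes beside them, a comparison chosen after values were seen. Hoxc5 followed Hoxc6, a group 6 gene, in all 3 comparisons, with ratios of folds of 1.002 (0.690 to 1.46), 0.855 (0.706 to 1.04) and 1.17 (0.784 to 1.75) for colon over ileum, caecum over ileum and colon over caecum. Hoxd4 stayed close to Hoxd3, at 1.08 (0.962 to 1.22), 1.16 (1.07 to 1.26) and 0.933 (0.844 to 1.03). Because Hoxd4 lies inside the span of Hoxd3 and shared reads were not told apart, these cannot be read as 2 separate profiles. Hoxd8, a HoxD gene that does not overlap Hoxd4, was also highest in the caecum, at 619, 2338 and 836 counts in the colon, caecum and ileum. Hoxd4 against Hoxd8 gave 0.805 (0.696 to 0.932), 1.22 (1.10 to 1.36) and 0.658 (0.581 to 0.746) in the same order of comparisons. Hoxa4 did not follow Hoxa3, since its ratio to Hoxa3 was 0.271 (0.229 to 0.322) for caecum over ileum and 2.09 (1.72 to 2.55) for colon over caecum. Hoxa5 against Hoxa6 gave 0.455 (0.387 to 0.535) for caecum over ileum. In HoxB the steps were smaller, with Hoxb4 against Hoxb3 at 0.648 (0.571 to 0.734) and Hoxb5 against Hoxb6 at 0.827 (0.729 to 0.939) for caecum over ileum.

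**Figure D5:**
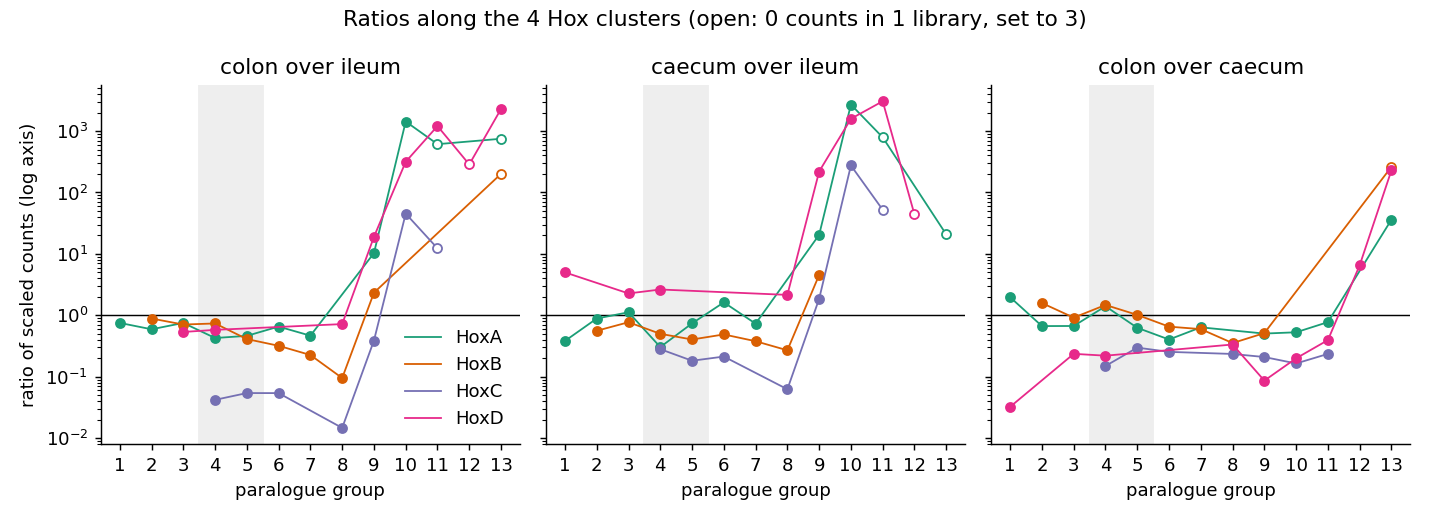
Ratios of scaled counts between segments (vertical log axis) by paralogue group (horizontal axis) for the 4 clusters, with groups 4 and 5 shaded, open points set to a floor of 3 counts in the lower library, and genes under 20 counts left out. In the shaded columns HoxC lies lowest for colon over ileum and HoxD highest for caecum over ileum.

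The other Hox groups give the setting. Between colon and ileum, groups 1 to 3 had 0 of 7 measured features 2-fold apart, groups 6 to 8 had 6 of 8 genes lower in the colon, and groups 9 to 13 had 13 of 14 higher. Between caecum and ileum, groups 1 to 3 had 1 of 8 lower in the caecum and 2 higher, and groups 6 to 8 had 5 of 8 lower and 1 higher. Groups 9 to 13 had 11 of 12 higher there. Between colon and caecum, 2 of 8, 5 of 8 and 6 of 14 were lower in the colon, and 0, 0 and 4 higher, in the same order of groups. Groups 4 and 5 made up 10.2% of the summed RPKM of all 40 Hox features in the colon, 12.1% in the caecum and 28.7% in the ileum. The denominators differ, at 188, 314 and 178 RPKM, while the members' own sums were 19.1, 38.0 and 51.1 RPKM.

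By the distance between log2 profiles centred over the 3 libraries, the Hox genes most like each member mostly came from the same cluster. For Hoxc4 and for Hoxc5 the nearest was Hoxc6, at 0.40 and 0.27 log2 units. For Hoxd4 it was Hoxd3 at 0.14, whose span holds Hoxd4, with shared reads not told apart. For Hoxa5 it was Hoxa7 at 0.02, and for Hoxb4 it was Hoxb2 at 0.18. Hoxa4 and Hoxb5 were nearest to each other, at 0.31, across clusters and groups. Over the whole table the nearest genes were Itga11, Actg2 and Cnn1 for Hoxa4, Iqgap2, Cmah and Cebpa for Hoxb4, and Sec16b, Naaladl1 and Col24a1 for Hoxb5. Hoxa5 was nearest to Rab40b, Hoxa7 and Efnb2, and Hoxd4 to Fst, Plg and Cxcl13. Hoxc4 had Hmcn2, Hoxc6 and Tnn, and Hoxc5 had Hoxc6, Alx4 and Fap. With only 3 libraries a profile is easily matched: of 12104 genes, 1123 lay within 0.5 of Hoxb4, 639 of Hoxa5 and 187 of Hoxb5, but 6 of Hoxc5 and 2 of Hoxc4.

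Most TALE cofactors were within 2-fold between segments, while several genes of the retinoic acid pathway were far apart. Of 9 TALE cofactors, homeodomain partners of Hox proteins, 1 was apart between colon and ileum, Pbx3, at 2.08-fold (1.98 to 2.18) higher in the colon, and 0 in the other comparisons. Meis1 had 33.7, 51.5 and 38.2 RPKM in the colon, caecum and ileum. Of the genes of retinoic acid synthesis, breakdown and response, 3 of 17 were higher and 2 lower in the colon than in the ileum, 6 of 18 higher and 2 lower in the caecum against the ileum, and 1 of 18 higher and 5 lower in the colon than in the caecum. Cyp26b1, which breaks down retinoic acid, had 2.05, 1.82 and 5.67 RPKM and was 2.80-fold (2.52 to 3.11) below the ileum in the colon and 3.16-fold (2.85 to 3.497) below it in the caecum. Cyp26a1, an enzyme of the same kind, went the other way at 0.161, 1.35 and 0.135 RPKM, with the caecum 9.87-fold (5.49 to 19.5) above the ileum. Rxrg, a retinoid receptor, had 97, 1674 and 14 counts in the colon, caecum and ileum, 91.9-fold (54.6 to 169) above the ileum in the caecum. Crabp2, which carries retinoic acid in the cell, had 4.39, 21.1 and 1.81 RPKM, with the caecum 11.5-fold (9.56 to 13.96) above the ileum. Rbp4, which carries retinol in the blood, had 129, 3393 and 470 counts, with the colon 20.8-fold (17.4 to 25.004) below the caecum. Of the enzymes that make retinoic acid, Aldh1a1 had 61.9, 15.7 and 120.2 RPKM, 7.72-fold (7.37 to 8.09) below the ileum in the caecum, while Aldh1a2 had 41.2, 34.6 and 52.3 RPKM and was within 2-fold throughout. Rarb, a receptor, was within 2-fold as well, at 13.998, 19.6 and 10.3 RPKM. The caudal-type factors, which act above Hox genes in the mouse, differed from each other. Cdx2 had 9.87, 18.8 and 17.5 RPKM and was within 2-fold throughout. Cdx1 had 151, 34 and 176 counts in the colon, caecum and ileum, so the colon lay 5.61-fold (3.85 to 8.403) above the caecum and the caecum 6.73-fold (4.64 to 10.03) below the ileum. Cdx4 had 4 counts or fewer in every library.

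Markers of some gut wall cells differed between segments as well. Of 12 markers of enteric neurons and crest, 8 were lower in the colon than in the ileum, 6 were lower in the colon than in the caecum, and 0 were apart between caecum and ileum. Their summed level was 113, 215 and 222 RPKM in the colon, caecum and ileum. Of 8 smooth muscle markers, 5 were lower in the colon and 6 in the caecum than in the ileum, with sums of 601, 439 and 1120 RPKM. None of these 20 genes was at 0 counts in any library, and Ret, a receptor of enteric crest, was within 2-fold in every comparison, at 23.5, 28.7 and 20.9 RPKM. The 7 measured mesenchyme markers all stayed within 2-fold, with sums of 600, 575 and 558 RPKM. The 11 epithelial markers summed to 216, 198 and 217 RPKM. For colon over ileum, Foxa2 was 5.89-fold (4.55 to 7.73) higher and Shh 2.05-fold (1.93 to 2.18) lower. For caecum over ileum, Foxa2 was 2.87-fold (2.19 to 3.81) higher and Elf3 2.52-fold (2.23 to 2.86) lower. For colon over caecum, Foxa2 was 2.05-fold (1.75 to 2.41) higher, and the 8 other epithelial markers were within 2-fold in every comparison. The 6 mesothelial markers summed to 102, 81.6 and 57.6 RPKM. For colon over ileum, Msln was 8.26-fold (5.398 to 13.2) and Krt19 2.16-fold (2.05 to 2.28) higher. Msln was 16.1-fold (9.69 to 28.7) higher for colon over caecum, and 0 of the 6 were apart between caecum and ileum. The part of these cell types in the levels of the Hox genes was not tested.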

How the data were processed

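Per the submitters' processing notes, Bowtie 0.12.7, DESeq and the mm9 genome were used, without their roles. The counting program, annotation release, gene lengths and use of strand are not given in the sources used here. Per the file headers the deposited table holds expected counts, with fractions of 0.5 in places, and RPKM, which the authors scaled to gene length and depth. The 2 columns of a segment had a mean squared difference of 0.442, 0.451 and 0.426 times the counting variance in the colon, caecum and ileum, against 43.1 to 63.2 times between segments, and shared their fractions of 0.5 in 100% of genes. They were averaged, and mean counts were rounded to whole numbers.

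Libraries were scaled by TMM (edgeR 4.0.16, R 4.3.3). A fold divides the scaled count of one library by that of another, and its 95% interval is Clopper-Pearson's for the 2 counts given their sum. Intervals of ratios of folds come from the log odds ratio of 4 counts. With 1 library per segment no test across samples was run, and the count model of edgeR was not fitted. Reads are not independent molecules, so intervals and floors cover counting error only. The procedure was tested on simulated data. All members were named. Likeness used log2 of TMM-scaled CPM plus 0.5 among genes with 100 counts in a library, leaving out predicted, clone, ribosomal, histone, mitochondrial and olfactory names. The members and lists were chosen with earlier results of these data known. Members lie, in mm9 with starts counted from 1, on chromosome 6 (Hoxa4 52139670 to 52141752 and Hoxa5 52151753 to 52154586, minus strand), 11 (Hoxb5 96163909 to 96167434 and Hoxb4 96177998 to 96182952), 15 (Hoxc5 102844246 to 102847860 and Hoxc4 102849367 to 102867274) and 2 (Hoxd4 74560035 to 74567217), the last 5 on the plus strand. Protein sequences were not used here.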

Additional observations from a re-analysis of the deposited data

How the results depend on the processing

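Under other scalings (DESeq2 size factors, library totals, upper quartile), the deposited RPKM, each column alone and the sum of columns, all 147 alternative values of the members' folds stayed inside the counting interval of the reported value, and 146 kept their direction. The exception was Hoxb5 between colon and caecum, whose interval holds 1, at 0.998 without the second column against 1.02 as reported. These settings could move the folds little. The sum of columns gives the same folds as their mean, and the largest factor by which any setting moved a fold was 1.03. The columns are of 1 library, so each column alone is not a replicate check. Hoxb4 between caecum and ileum, at 0.4998 of the ileum as reported, was 0.505 with library totals, 0.505 with RPKM and 0.501 without the first column, so that 4 and not 5 members were then lower in the caecum. With an interval wholly beyond 2-fold, 4, 5 and 3 members were apart for colon over ileum, caecum over ileum and colon over caecum, and at 1.5-fold 6, 6 and 4, against 5, 6 and 3 as reported. Over all genes the numbers apart, 1465, 1268 and 1404 as reported, moved to 2736, 2444 and 2762 with no count minimum, to 810, 707 and 804 with a minimum of 100 counts, to 769, 630 and 741 with an interval wholly beyond 2-fold, and to 2796, 2737 and 2768 at 1.5-fold, as fewer or more genes pass such rules. No paired analysis was possible because each segment has 1 library. Depth limits Hoxc4 and Hoxc5 in the colon most, at 49 and 45 counts.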
